A study of Mus musculus with 8 samples.

Results

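The genes described are 7 by which liver senses lipopolysaccharide (LPS), the endotoxin of Gram-negative bacteria. They were read through 12 probe sets of a mouse expression array, out of 17790 genes tested and 45101 probe sets in all. They were Cd14, Tlr2, Tlr4, Ly96, Lbp, Myd88 and Irak3, taken by name through every probe set annotated to them. Cd14 was selected on its readout, namely a signal after resection that was high mainly in control vector livers, so its values are given as a description with no test. The other 6 genes were tested together with all genes of the table.

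The samples were whole livers of BALB/c mice aged 8 weeks that had received recombinant adenovirus 5 days before a resection of 78% of the liver. The post-A20 livers carried human A20 and were the remnant taken 24 h after resection, and the pre-A20 livers carried the same vector and were the lobes removed at resection (0 h). The post-βgal and pre-βgal livers were taken at the same times and carried β-galactosidase, the control transgene, in the same virus, so that all 4 groups had been exposed to adenovirus and no group was free of it. Each group had 2 arrays, each with the pooled RNA of 3 mice, and the vector reached 30% to 40% of hepatocytes according to the sample records. For post-A20 samples the treatment field of the records speaks of βgal, but title, source and description all name A20, and these were used to group them.

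LPS that reaches the liver in portal blood is bound in plasma by LBP, a protein made by hepatocytes, and handed to CD14, a co-receptor without a signalling tail of its own. CD14 passes it to the receptor TLR4 and its partner MD-2, the product of Ly96. TLR2 is the neighbouring receptor for bacterial lipoproteins and also works with CD14. Both receptors signal through the adaptor MyD88 to NF-κB, and IRAK-M, the product of Irak3, holds that signal back in macrophages. A20, the product of Tnfaip3, is an inhibitor of NF-κB that is itself switched on by NF-κB. Kupffer cells, the resident macrophages of the liver, carry most of the receptors, and hepatocytes can also make CD14 in inflamed liver.

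Hepatocyte transcripts led the signal in all 8 arrays, with 9 of 10 listed markers measured and a summed signal of 101500 to 116400. The medians of the arrays were 153 to 166. RNA integrity was uneven. By the β-actin controls, 3′ signal exceeded 5′ signal 6.997-fold in replicate 1 of pre-βgal and 3.64-fold in replicate 1 of post-βgal, and 1.27 to 1.62-fold in the other 6 arrays. Values with these arrays left out are given below wherever they end a call. The signal is a normalized intensity on a linear scale, and fold changes are on the scale of log2(signal + 16). With 2 arrays per group, nothing in the labels says whether the pools of one replicate number share mice, so p-values measure the spread between pools.

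Of the 6 genes looked up in RefSeq's promoter table (build GRCm38.p6, 250 bases before to 50 bases after the start), 3 were matched, namely Tlr2, Myd88 and Irak3, and Tlr4, Ly96 and Lbp were not used here. The promoters of Tlr2 and Myd88 are shown because both genes had their lowest group mean in pre-A20 and both hold a match to a motif of NF-κB. Capitals mark matches on either strand to NF-κB (GGNNTTTCC and GGGNNTTCC), C/EBP (TTGCNNAA), STAT3 (TTCCNGGAA and TTCCNNGAA) and AP-1 (TGANTCA), where N is any base.
Tlr2, chr3:83841559-83841858, minus strand: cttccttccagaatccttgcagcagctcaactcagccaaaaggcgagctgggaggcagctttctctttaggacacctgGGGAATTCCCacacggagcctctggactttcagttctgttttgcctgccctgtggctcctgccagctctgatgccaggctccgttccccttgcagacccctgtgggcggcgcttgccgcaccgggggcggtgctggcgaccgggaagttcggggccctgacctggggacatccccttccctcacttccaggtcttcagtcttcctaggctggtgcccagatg
Myd88, chr9:119339969-119340268, minus strand: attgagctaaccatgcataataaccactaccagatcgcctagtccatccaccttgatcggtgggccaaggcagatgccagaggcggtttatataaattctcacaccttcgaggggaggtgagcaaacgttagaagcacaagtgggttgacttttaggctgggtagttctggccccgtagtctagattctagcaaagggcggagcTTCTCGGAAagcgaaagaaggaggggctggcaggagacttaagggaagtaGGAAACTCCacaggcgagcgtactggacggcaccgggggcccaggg
In Tlr2 the capitals were 2 overlapping NF-κB matches, GGGAATTCC and its reverse strand partner GGAATTCCC, between 172 and 163 bases before the start. In Myd88 they were the STAT3 match TTCTCGGAA, 46 to 38 bases before the start, and the NF-κB match GGAAACTCC, at bases 5 to 13 after it. Of 32544 promoters of this length, 9.86% held either NF-κB motif and 4.82% held TTCCNNGAA. Of the 2 Irak3 promoters, 1 held no match and 1 held a C/EBP match, a motif present in 10.8% of promoters. These matches describe letters and were not tested as binding sites. Both promoters shown were chosen partly for holding an NF-κB match, so setting them beside the share of all promoters tests nothing. Tlr4 (brightest probe set), Ly96 and Lbp also had their lowest group mean in pre-A20, and no promoter of theirs was searched.

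Cd14, the co-receptor, had the widest range of the 7 genes. Its signal was 573.5 and 663 in post-A20 arrays, 151.5 and 169 in pre-A20 arrays, 5353 and 5405 in post-βgal arrays, and 766 and 343.5 in pre-βgal arrays. The post-βgal arrays stood apart from all others, the pre-A20 arrays were below all others, and the post-A20 arrays lay between both pre-βgal arrays. The group means in falling order were 5379 ± 36.7 in post-βgal, 618 ± 63.3 in post-A20, 555 ± 299 in pre-βgal and 160.3 ± 12.4 in pre-A20 (SD, n = 2 arrays), and of the neighbours in this order only post-A20 and pre-βgal overlapped. After resection Cd14 was 3.59-fold higher with A20 (log2 1.85) and 10.2-fold higher with βgal (log2 3.35). The log2 difference between A20 and βgal was −1.59 before resection and −3.09 after it. Both pre-βgal arrays weighed on these values: without pre-βgal replicate 1 the difference before resection was −1.03 and the resection value with βgal 3.91, and without pre-βgal replicate 2 they were −2.15 and 2.79. The contrast by which Cd14 was chosen, the resection difference with A20 minus that with βgal, was −1.50, and it was −2.06 without pre-βgal replicate 1 and −0.94 without pre-βgal replicate 2. The difference after resection, in which both post-βgal arrays had nearly one value, stayed between −3.28 and −2.83 over the alternatives tried. Cd14 was read through a single probe set, 1417268_at.

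**Figure D1:**
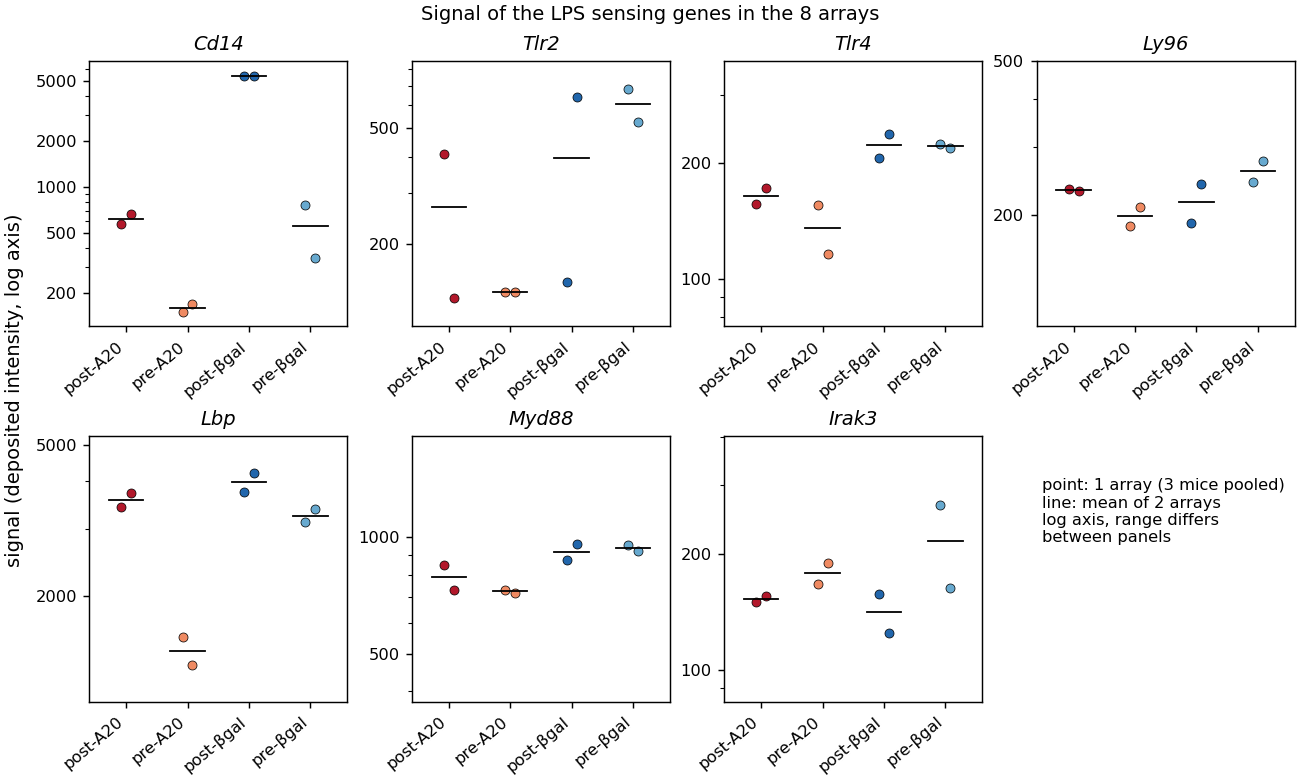
Signal of the 7 genes in each of the 8 arrays, with the array signal on a log axis whose range differs between panels and the 4 groups along the x axis. Points are arrays and lines are means of 2 arrays. Cd14 reached 5353 and 5405 in post-βgal arrays and at most 766 in the other 6, Lbp stood at 1554 and 1318 in pre-A20 arrays and at 3120 or more elsewhere, and the 2 arrays of Tlr2 lay far apart in both post groups.

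Lbp, which hepatocytes release and which carries LPS to CD14, was the member called in most comparisons. Its signal was 3419 and 3732 in post-A20 arrays, 1554 and 1318 in pre-A20 arrays, 3741 and 4208 in post-βgal arrays, and 3120 and 3375 in pre-βgal arrays. The pre-A20 arrays were the low ones, and no 2 neighbouring groups overlapped. Lbp fell to 1436 ± 167 in pre-A20 livers, against 3247 ± 180.3 in pre-βgal livers (SD, n = 2), a log2 fold change of −1.17 ± 0.16 (SE; limma, adjusted p = 0.0246). It rose after resection with A20 to 3576 ± 222, against 1436 ± 167 in pre-A20 livers, 2.48-fold (log2 1.31 ± 0.16, adjusted p = 0.0171). With βgal the resection difference was 0.29 on the log2 scale (95% interval −0.09 to 0.67, adjusted p = 0.33), and after resection A20 and βgal livers differed by −0.15 (−0.53 to 0.23, adjusted p = 0.619). The resection differences with A20 and βgal differed by 1.02 on the log2 scale (0.49 to 1.55, adjusted p = 0.212), so a difference between the vectors was not shown by the fit. Averaged over both times A20 livers had −0.66 (adjusted p = 0.0264), and averaged over both vectors resected livers had 0.80 (adjusted p = 0.0114).

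These calls of Lbp rest on few arrays. The call before resection was lost without pre-A20 replicate 2 (adjusted p = 0.224), pre-A20 replicate 1 (0.0632), pre-βgal replicate 1 (0.055), post-βgal replicate 1 (0.0528) or post-βgal replicate 2 (0.0534), with log2 values between −1.29 and −1.05. The call after resection with A20 was lost without any of its own 4 arrays (adjusted p = 0.075 and 0.159 without pre-A20 replicates 1 and 2, 0.0932 and 0.183 without post-A20 replicates 1 and 2), with log2 values between 1.19 and 1.43. The average over both times was lost without any post-A20, pre-A20 or post-βgal array (adjusted p up to 0.104), and the average over both vectors without replicate 2 of post-A20, pre-A20 or post-βgal (adjusted p up to 0.0686). A dimmer Lbp probe set, 1447520_at, had 347 and 341 in post-A20 arrays, 269 and 252 in pre-A20 arrays, 515 and 546 in post-βgal arrays, and 698 and 347 in pre-βgal arrays. It was also lowest in pre-A20, at −0.88 against pre-βgal, with an adjusted p over all probe sets of 0.133, and its difference after resection with A20 was 0.38 (adjusted p = 0.578).

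Tlr4, the LPS receptor itself, was read through 4 probe sets that disagreed in part. The brightest, 1418163_at, had 156 and 173 in post-A20 arrays, 156 and 116 in pre-A20 arrays, 206 and 238 in post-βgal arrays, and 223 and 218 in pre-βgal arrays. Every A20 array was below every βgal array, and how many of all genes separated in this way is not given here. Averaged over both times, Tlr4 fell by 0.52 on the log2 scale in A20 livers (SE 0.10, adjusted p = 0.0335). Taken apart, the difference was −0.65 before resection (95% interval −0.98 to −0.32, adjusted p = 0.0603) and −0.40 after it (−0.73 to −0.07, adjusted p = 0.198). After resection the values were 0.26 with A20 and 0.01 with βgal (adjusted p = 0.444 and 0.986). The averaged call was lost without any post-A20 or βgal array except pre-βgal replicate 2, and without pre-A20 replicate 2 (adjusted p = 0.0592 to 0.107).

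The other Tlr4 probe sets were dimmer. The next, 1442827_at, had 97.1 and 103 in post-A20 arrays, 93.0 and 76.9 in pre-A20 arrays, 107.5 and 136 in post-βgal arrays, and 165.5 and 198 in pre-βgal arrays. It fell by 0.97 on the log2 scale in pre-A20 against pre-βgal livers (adjusted p over all probe sets = 0.0277), and at −0.53 after resection with βgal (adjusted p = 0.112) it did not follow the brightest one, which had 0.01. The probe set 1418162_at ranged from 68.3 to 118 and had −0.06 before resection (adjusted p = 0.867). The probe set 1430695_at, at 23.1 to 47.0, reached the minimum mean of 40 in pre-βgal livers alone, and its differences from that group are therefore not read. It remains uncertain which of the 4 stands for the receptor's transcript.

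Ly96, whose product MD-2 holds LPS on TLR4, varied little. It had 234 and 231 in post-A20 arrays, 187.5 and 210.2 in pre-A20 arrays, 191 and 241 in post-βgal arrays, and 244.5 and 276 in pre-βgal arrays. The pre-A20 arrays were below the pre-βgal arrays by 0.36 on the log2 scale (value −0.36, 95% interval −0.68 to −0.05, adjusted p = 0.183). With A20 both post arrays were above both pre arrays (0.21), and with βgal both were below (−0.26), neither past the threshold (adjusted p = 0.518 and 0.307).

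Tlr2, the lipoprotein receptor, had the largest spread between arrays of one group. Its signal was 407.5 and 129.9 in post-A20 arrays, 136 and 136 in pre-A20 arrays, 148 and 642 in post-βgal arrays, and 682 and 528 in pre-βgal arrays. Both pre groups were tight and did not overlap, and both post groups held 1 array near the pre-A20 level and 1 array well above it. The pre-A20 value against pre-βgal was −2.02 on the log2 scale (SE 0.66, 95% interval −3.54 to −0.49), and the adjusted p was 0.138, with 1 variance estimated over all 4 groups, the spread of the post arrays included. The other comparisons were −0.40 for post-A20 against post-βgal (adjusted p = 0.753), 0.71 after resection with A20 (0.672) and −0.91 with βgal (0.445). In each of these 3 the sign turned when 1 post array was left out: the first without post-A20 replicate 2 (0.37) or post-βgal replicate 2 (0.60), the second without post-A20 replicate 1 (−0.06) and the third without post-βgal replicate 1 (0.09). Of the post-βgal arrays the low one, replicate 1, is the one with the 3′ to 5′ ratio of 3.64, and its part in the value was not tested.

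**Figure D2:**
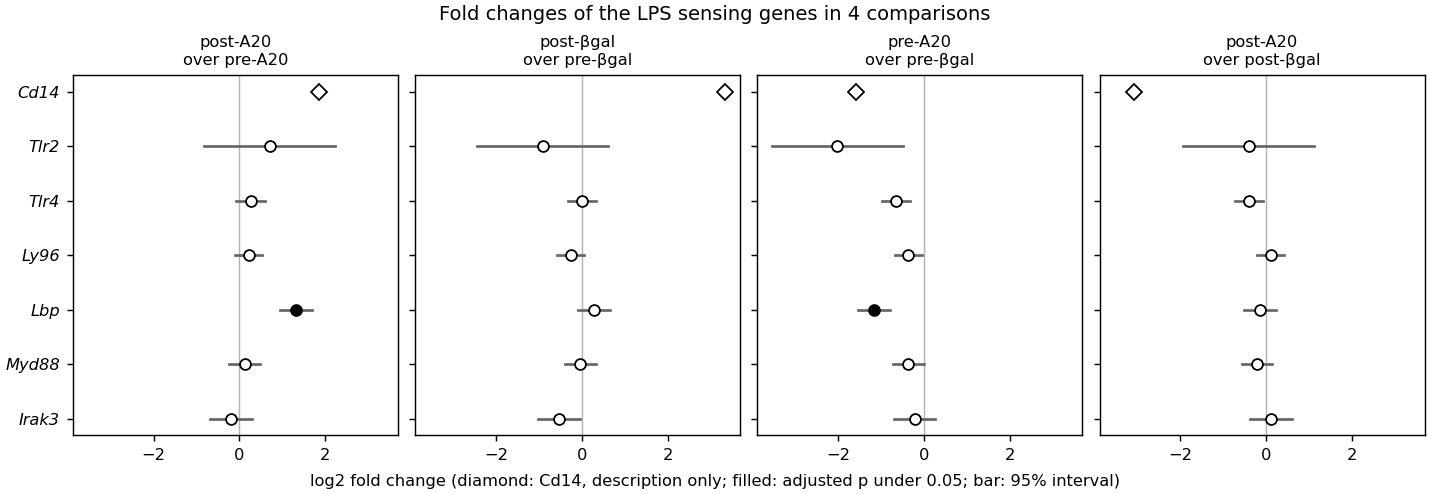
Log2 fold change of the 7 genes in 4 comparisons, 1 panel each, with 95% intervals from limma for the 6 genes tested and an open diamond without interval for Cd14. Filled points passed an adjusted p of 0.05, which only Lbp did, at 1.31 in post-A20 over pre-A20 and −1.17 in pre-A20 over pre-βgal, and all 7 genes lie left of 0 in pre-A20 over pre-βgal.

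Myd88, the adaptor shared by both receptors, had 848 and 732 in post-A20 arrays, 732 and 716 in pre-A20 arrays, 873 and 957 in post-βgal arrays, and 953 and 918 in pre-βgal arrays. As with the brightest Tlr4 probe set, every A20 array was below every βgal array, again without a share over all genes to set it against. The log2 differences were −0.36 before resection (95% interval −0.72 to −0.01, adjusted p = 0.222) and −0.21 after it (−0.57 to 0.15, adjusted p = 0.466), and the resection differences were 0.12 with A20 and −0.03 with βgal.

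Irak3, the inhibitor, had 149.8 and 155 in post-A20 arrays, 167 and 189.5 in pre-A20 arrays, 158 and 125 in post-βgal arrays, and 268 and 163 in pre-βgal arrays through 1430704_at. Its group means were lower after resection with both vectors. The value was −0.20 with A20 (adjusted p = 0.706) and −0.53 with βgal (95% interval −1.01 to −0.05, adjusted p = 0.194), and this βgal comparison passed the threshold without pre-βgal replicate 2 (−0.86, adjusted p = 0.0351), while without pre-βgal replicate 1, the array with the 3′ to 5′ ratio of 6.997, it was −0.20 (adjusted p = 0.465). A second probe set, 1435040_at, had 157 and 95.2 in post-A20 arrays, 138.5 and 103.8 in pre-A20 arrays, 134.5 and 215 in post-βgal arrays, and 175 and 194 in pre-βgal arrays, and its resection differences were 0.03 and −0.10.

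Counted together, 1 of the 6 genes tested was called higher after resection with A20 and 0 with βgal, where 1.01% and 2.25% of all genes were called. In pre-A20 against pre-βgal livers 1 of 6 was called lower, against 2.5% of all genes called, and in post-A20 against post-βgal livers 0 of 6, against 0.332%. Averaged over both times 2 of 6 were lower with A20 (5.39% of all genes called), and averaged over both vectors 1 of 6 was higher after resection (4.76%). The resection difference with A20 minus that with βgal gave 0 calls among the 6 and 0% among all genes, where limma had 2788 genes at an unadjusted p under 0.05, 2 of the 6 among them. Before resection all 6 values were below 0 with a median of −0.51, against a median of −0.03 over all genes, and 5 of the 6 had an unadjusted p under 0.05, as did 21.8% of all genes, while Irak3 turned to 0.11 without pre-βgal replicate 1. After resection 4 of the 6 were below 0 with a median of −0.18, against 0.03 over all genes. In the comparisons with non-overlapping arrays above, between 51.3% and 60.1% of all genes did not overlap either, so a gap between 2 arrays and 2 arrays says little by itself.

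Of 106 other genes of the pathway, 96 were tested, and the lists were chosen with earlier results of these data known. In post-A20 against pre-A20 livers 2 were called higher and 1 lower, in post-βgal against pre-βgal livers 3 higher and 0 lower, in pre-A20 against pre-βgal livers 0 higher and 7 lower, and in post-A20 against post-βgal livers 0. Of all genes, 1.01%, 2.25%, 2.5% and 0.332% were called in these comparisons, in the same order. The 7 lower ones before resection were 6 of the 22 LPS-induced products tested and 1 of the 18 feedback inhibitors. The list medians there were −0.31 for the products, −0.41 for the inhibitors and −0.63 for the 7 NF-κB and IRF factors, against −0.11 for 18 other receptors, 0.03 for 18 adaptors and kinases and 0.02 for 13 genes of LPS binding and clearance. The count of 7 was 1 without pre-βgal replicate 1 or either pre-A20 array, 3 without either post-βgal array, 5 without either post-A20 array and 16 (with 4 higher) without pre-βgal replicate 2.

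Among the LPS-induced products Lcn2 and Saa3 had the largest differences. Lcn2, which withholds iron from bacteria, had 11810 and 14160 in post-A20 arrays, 209 and 493 in pre-A20 arrays, 13760 and 14000 in post-βgal arrays, and 2622 and 2871 in pre-βgal arrays. The 4 resected arrays were close to each other, and the pre-A20 arrays were far below the pre-βgal arrays. It fell by 3.03 on the log2 scale in pre-A20 against pre-βgal livers (adjusted p = 0.0189) and rose after resection by 5.26 with A20 (0.00234) and by 2.33 with βgal (0.0211). Saa3, an acute phase protein, had 3268 and 2902 in post-A20 arrays, 365 and 477 in pre-A20 arrays, 5554 and 9086 in post-βgal arrays, and 7330 and 3534 in pre-βgal arrays. It fell by 3.56 before resection with A20 (adjusted p = 0.0189) and rose by 2.84 after resection with A20 (0.02), with 0.48 after resection with βgal (0.467). Ccl5, a chemokine for T cells and monocytes, fell by 1.14 before resection with A20 (adjusted p = 0.0191). Leaving out arrays, the Lcn2 rise with A20 was called in all 9 refits, and its fall before resection was lost without pre-βgal replicate 1 (adjusted p = 0.0544). The Saa3 fall was lost without either pre-A20 array (adjusted p up to 0.118), its rise without any of the 4 A20 arrays (up to 0.173), the Ccl5 fall without pre-βgal replicate 1 or either pre-A20 array (up to 0.193), and the Lcn2 rise with βgal without either post-βgal or either post-A20 array (up to 0.128).

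Among the feedback inhibitors, mouse Tnfaip3 had 472 and 202 in post-A20 arrays, 170.0 and 162 in pre-A20 arrays, 366 and 531 in post-βgal arrays, and 927 and 574 in pre-βgal arrays. It fell by 2.03 on the log2 scale in pre-A20 against pre-βgal livers (adjusted p = 0.0468), a call lost without pre-βgal replicate 1, either post-βgal array or either pre-A20 array (adjusted p up to 0.283). Its second probe set, 1450829_at, had −0.16 there (adjusted p over all probe sets = 0.778). Both probe sets were designed for the mouse transcript, so they do not check the human A20 transgene. Dusp1, a phosphatase of MAP kinases, fell by 0.98 after resection with A20 (adjusted p = 0.0443). Il1rn, the decoy ligand of the IL-1 receptor, had −0.82 in pre-A20 against pre-βgal livers (adjusted p = 0.0616).

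Among the receptors and adaptors, Il1r1, the IL-1 receptor, which shares MyD88 with TLR4, had 715 and 1178 in post-A20 arrays, 487.5 and 476 in pre-A20 arrays, 1298 and 1481 in post-βgal arrays, and 314 and 490.0 in pre-βgal arrays. It rose by 1.78 on the log2 scale after resection with βgal (adjusted p = 0.0273) and had 0.91 with A20 (0.178). Its partner Il1rap had 1.50 in pre-A20 against pre-βgal livers (adjusted p = 0.0641), opposite in sign to the 6 members. The Il1rap arrays were 2108 and 2290 in pre-A20, and 501 and 1173 in pre-βgal. The lower of the pre-βgal arrays was replicate 1, with the 3′ to 5′ ratio of 6.997, and its part in the value was not tested. Tab3, which links TRAF6 to the kinase TAK1, rose by 0.61 after resection with βgal (adjusted p = 0.0296), a call lost without any 1 of the 8 arrays. The calls of Il1r1 and Dusp1 were each lost in 6 of 9 refits with arrays left out (adjusted p up to 0.151 and 0.248): that of Il1r1 without pre-βgal replicate 1, either post-βgal or either pre-A20 array, that of Dusp1 without any post-βgal, pre-A20 or post-A20 array. Tlr3, Tirap, Map3k8, Rel, Relb, Irf7, Marco, Itgb2 and Hp, the others with the smallest p of their lists, were not called in any of the 4 comparisons, and their smallest adjusted p was 0.0649, for Hp after resection with A20 (0.62).

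**Figure D3:**
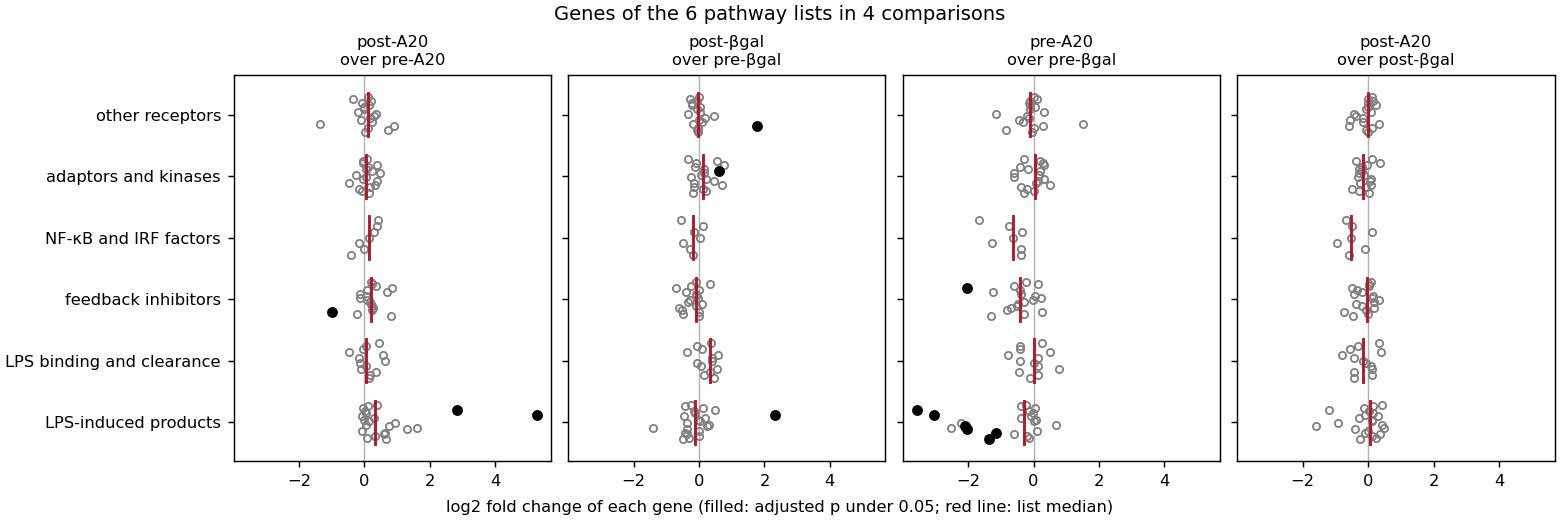
Log2 fold change of each of 96 pathway genes in 4 comparisons, in 6 lists down the page, with filled points for genes at an adjusted p under 0.05 and a red line for each list's median. The 7 filled points in pre-A20 over pre-βgal all lie left of 0, and 6 of them are LPS-induced products.

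Cell type markers were read beside the 7 genes. The summed signal of 8 T, NK and B cell markers was 1983 to 2581 over the 8 arrays, with 0 of 8 called between A20 and βgal livers at either time. That of 9 sinusoidal endothelial markers was highest in pre-A20 arrays, at 4869 and 5087, against 3456 to 4101 elsewhere. So was that of 7 hepatic stellate cell markers, at 5549 and 5749, against 3688 to 5219 elsewhere. In pre-A20 against pre-βgal livers 0 genes of either list were called. The summed signal of 14 Kupffer cell and macrophage markers was 14220 and 11170 in post-A20 arrays, 8665 and 8566 in pre-A20 arrays, 10960 and 13670 in post-βgal arrays, and 16160 and 15100 in pre-βgal arrays. The pre-A20 arrays were thus lowest for the Kupffer cell and macrophage markers, as they were for the group means of Cd14, Tlr2, Tlr4 (brightest probe set), Ly96, Lbp and Myd88. The median marker had −0.57 in pre-A20 against pre-βgal livers, and 1 of 14 was called lower there, against 2.5% of all genes called. This was Csf1r, the receptor of macrophage colony-stimulating factor (−0.93, limma, adjusted p = 0.0481). Its call was lost without any 1 array except pre-βgal replicate 2. No marker was at 0 in any array. In bulk RNA, fewer cells of a type and less RNA per cell cannot be told apart. The part of macrophage content in the values of the 7 genes was not tested.

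Of 13 neutrophil markers listed 11 were measured. For 3 of them, S100a8, S100a9 and Mmp8, both post-βgal arrays were above all other arrays, as for Cd14. The resection values of S100a8 were 1.22 with βgal and 1.07 with A20, and those of S100a9 1.12 and 1.26, none called. In pre-A20 against pre-βgal livers S100a8 (−2.08) and S100a9 (−2.65) were also called lower (limma, adjusted p = 0.0232 and 0.0189). Both calls before resection were lost without either pre-A20 array, and that of S100a8 also without pre-βgal replicate 1. The summed signal of all 11 was 3688 and 3391 in post-A20 arrays, 3022 and 2938 in pre-A20 arrays, 6134 and 7026 in post-βgal arrays, and 5001 and 4274 in pre-βgal arrays. The 3 genes carried this sum, with 953 and 704 in post-A20 arrays, 398.6 and 433 in pre-A20 arrays, 3724 and 4468 in post-βgal arrays, and 2225 and 1404 in pre-βgal arrays. The other 8 summed to 2736 and 2687 in post-A20 arrays, 2623 and 2505 in pre-A20 arrays, 2410 and 2558 in post-βgal arrays, and 2777 and 2869 in pre-βgal arrays, so their sum did not follow Cd14. Among these 8, Csf3r, Camp and Ngp also had their highest group mean in post-βgal livers, with arrays that overlapped those of other groups. Csf3r had 213.9 and 243.8 in post-βgal arrays, 234 and 205.4 in pre-βgal arrays, and 146.4 and 156.6 in pre-A20 arrays. Averaged over both times Csf3r was lower with A20 (−0.38, limma, adjusted p = 0.0441). Cxcr2, the chemokine receptor of neutrophils, had 0.42 in post-A20 against post-βgal livers (adjusted p = 0.259), and the median of all 11 markers there was −0.0018. In post-A20 against post-βgal livers, where limma called 0.332% of all genes, 3 of the 11 were called lower. They were S100a8 (−2.23, limma, adjusted p = 0.0278), S100a9 (−2.51, 0.0177) and the collagenase gene Mmp8 (−1.51, 0.00643). The S100a8 and S100a9 calls were lost without any 1 post-A20, pre-A20 or post-βgal array (adjusted p up to 0.177 and 0.118), and the Mmp8 call without either post-A20 array (up to 0.0856). Monocyte markers (5 of 6 measured) summed to 9452 and 10970 in post-A20 arrays, 6668 and 5212 in pre-A20 arrays, 8621 and 8737 in post-βgal arrays, and 5888 and 6533 in pre-βgal arrays. Most of this was Fn1, the fibronectin gene, which hepatocytes also express. The other 4 summed to 1381 and 1058 in post-A20 arrays, 1086 and 1047 in pre-A20 arrays, 1050 and 1321 in post-βgal arrays, and 1246 and 1501 in pre-βgal arrays, and in this sum resected and unresected arrays overlapped with both vectors. These 4 did not move alike after resection with βgal. There F13a1 had 0.78 (limma, adjusted p = 0.0417) and Chil3 0.65 (0.221), but Ccr2 had −0.75 (0.109) and Vcan −0.255 (0.211). F13a1 was highest in post-βgal arrays (208.5 and 289) and lowest in pre-A20 arrays (94.7 and 107), as Cd14 was. With arrays left out the F13a1 resection value with βgal was 0.56 to 1.03. Its call was lost without either pre-βgal array, post-βgal replicate 2 or any A20 array. Hepatocyte markers had a median between −0.03 and 0.10 in all 7 comparisons, with 1 of 9 called. The call of Fgb after resection with βgal was lost without pre-βgal replicate 1. The part of neutrophils and monocytes in the Cd14 signal was not tested.

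**Figure D4:**
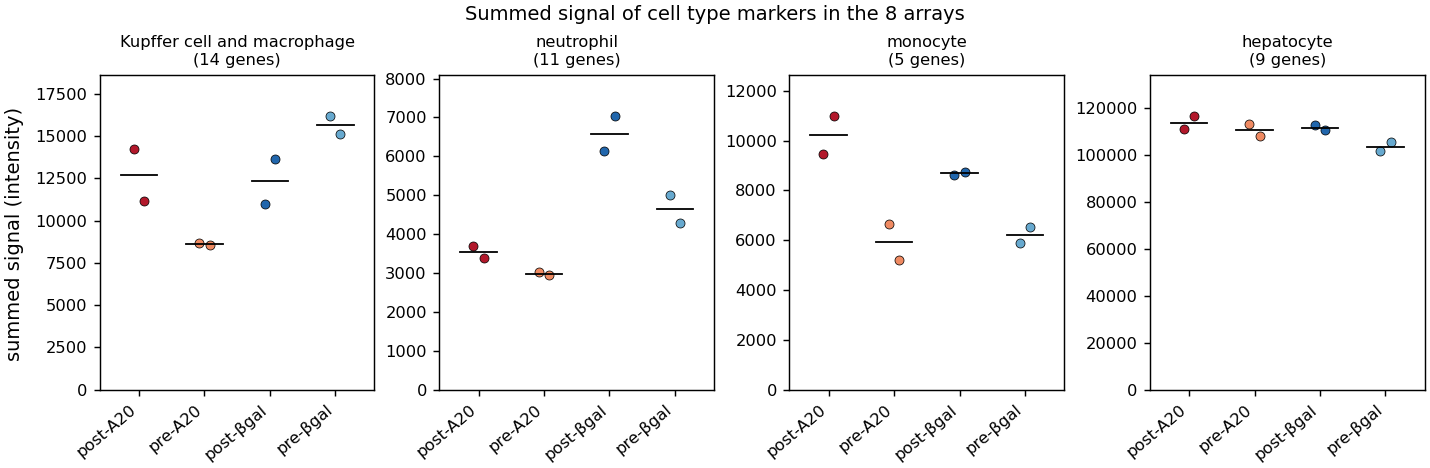
Summed signal of marker genes of 4 cell types in each of the 8 arrays, on linear axes that start at 0, with points for arrays and lines for means of 2 arrays. Kupffer cell and macrophage markers were lowest in pre-A20 arrays (8665 and 8566), the sum of neutrophil markers was highest in post-βgal arrays (6134 and 7026) through 3 of its 11 genes, and hepatocyte markers stayed between 101500 and 116400.

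The genes whose signal was most like that of each member over the 8 arrays differed between members. They were taken from 1242 genes whose group means spanned at least 1 on the log2 scale, by Pearson's r over 8 arrays that share groups and integrity, and are a description. Cd14 was most like Osmr (r = 0.992), the receptor of oncostatin M, then the chemokine gene Ccl6 (0.990), the activin inhibitor gene Fst (0.989), Sfpq and Fnbp1l. Osmr had 146 and 148 in post-A20 arrays, 71.6 and 83.7 in pre-A20 arrays, 311.5 and 369.5 in post-βgal arrays, and 163 and 99.0 in pre-βgal arrays, the order of groups that Cd14 had. Tlr2 was most like Acod1 (0.955), which makes itaconate in activated macrophages, followed by Oasl1, Tnfaip3, Oasl2 and Usp18 (0.921 to 0.911). Oasl1 and Usp18, both induced by interferon, also stood among the 5 nearest to Myd88 (0.966 and 0.957), beside the MHC class II genes H2-Ab1 and H2-Aa and Ier5.

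Lbp was most like Cyp4a14 (0.987), a fatty acid hydroxylase of hepatocytes, then Btg2, Mcm6, Actg1 and Tgm2 (0.986 to 0.959). Mcm6, a subunit of the replicative helicase, had 2059 and 2909 in post-A20 arrays, 863 and 936 in pre-A20 arrays, 2594 and 2857 in post-βgal arrays, and 2027 and 2248 in pre-βgal arrays, low in pre-A20 as Lbp was. Tlr4 was nearest to Tnp1 (0.970), Akap4, Smarcc1, Nrip2 and Mast2, Ly96 to Gm26744 (0.931), Pnrc1, Arntl, Ikzf1 and Alkbh1, and Irak3 to Sfxn5 (0.936), F7, Enho, Dcxr and Emc9, the last set lower in resected livers. Tnp1 and Akap4 are known from the male germ line, and in liver their probe sets had 82.7 to 231 and 107 to 408.

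**Figure D5:**
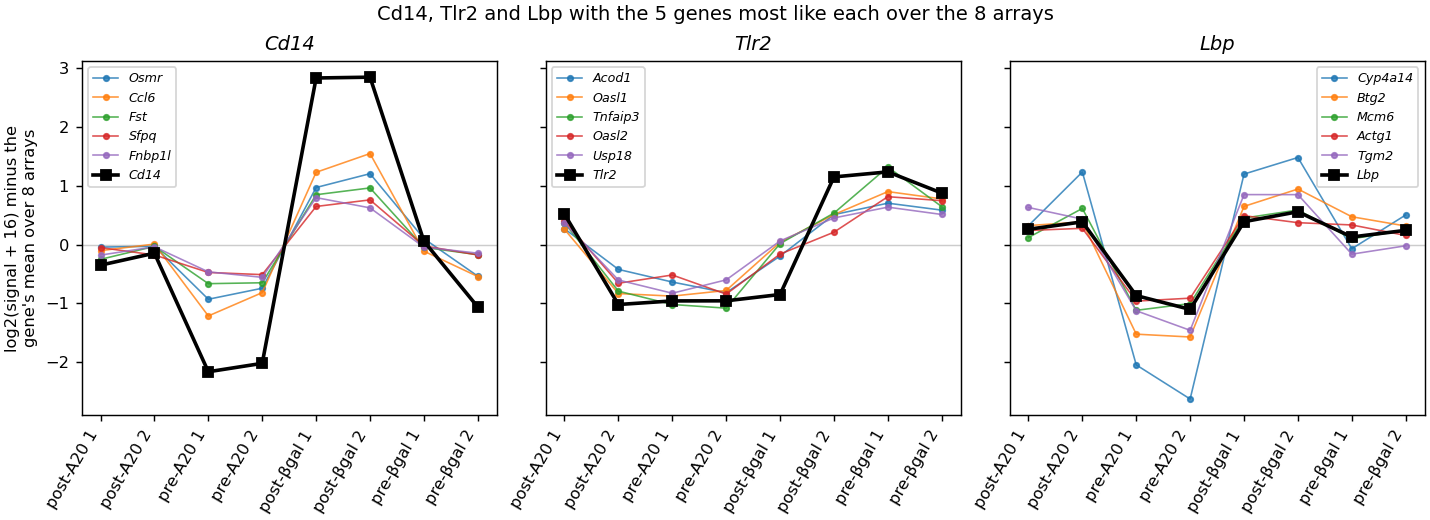
Centred log2(signal + 16) of Cd14, Tlr2 and Lbp (black squares) and the 5 genes most like each (coloured points) over the 8 arrays, joined by lines for reading only. Cd14 and its neighbours were highest in post-βgal arrays and lowest in pre-A20 arrays, Tlr2 and its neighbours parted within both post groups, and Lbp and its neighbours dipped in pre-A20 arrays.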

How the data were processed

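Liver RNA of 8 pools, each of 3 mice, was hybridised to Affymetrix mouse genome arrays. The authors deposited 1 table of normalized intensity values per probe set on a linear scale. Their methods name dChip with invariant set normalization and perfect-match probes, and the sample records name MAS5. It was not settled which of these made the values. A further scaling was not applied. Raw probe files were not used here.

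Genes were named through the array's annotation: 34945 probe sets had 1 symbol, 932 several and 9160 none, and these last, with 64 control probe sets, stood for no gene. To each intensity 16 was added and the log2 taken. The 42703 probe sets whose mean reached 40 in 1 group or more were fitted with limma 3.58.1 in R 4.3.3 (1 mean per group, variance trend, 4 residual and 3.73 prior degrees of freedom), and each gene was read through its brightest probe set. Tests were 2-sided over 7 comparisons, adjusted by Benjamini-Hochberg over the 17790 genes, and called under 0.05. The fit was checked on simulated data. Arrays number 2 per group, which limits the precision.

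The members and lists were chosen with earlier results of these data known. Named genes were the members, the up to 3 genes per pathway list with the smallest p in the 4 comparisons of 2 groups, and the 5 genes with the highest r to each member. Marker genes of the text were chosen after their values were seen. Alternatives, 26 in all, covered scaling, offset, filter, variance model, probe set, arrays fitted, blocks and the 3′ to 5′ ratio as a covariate.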

Additional observations from a re-analysis of the deposited data

Results flagged for a closer look

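Ly96 stood out because every array moved one way after resection with A20 and the other way with βgal: 234 and 231 in post-A20 against 187.5 and 210.2 in pre-A20 arrays, and 191 and 241 in post-βgal against 244.5 and 276 in pre-βgal arrays. The difference between both resection values was 0.47 on the log2 scale (0.21 with A20, −0.26 with βgal), and the test of that difference did not pass the threshold (limma, adjusted p = 0.306). The Tlr4 probe set 1442827_at did the same, with a difference of 0.73 (limma, adjusted p over all probe sets = 0.229), while the brightest Tlr4 probe set had 0.25 (adjusted p = 0.558). The Tlr4 probe set 1430695_at also had 0.73, but it passed the filter on low signal through pre-βgal livers alone, so its value had to lean on that group and is not read. Of all 17790 genes, 11% had arrays that moved in opposite ways in this sense, so such a pattern is common in this table.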

How the results depend on the processing

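Of 1157 values of members and of counts of members under 26 alternatives, 1058 were judged unchanged, and the cause of the other changes was not tested. For the 6 genes tested, unchanged means the same sign and the same side of the threshold. For Cd14 it means the same sign and a shift smaller than the SD of its arrays around their group means. For counts it means an equal number. With 1 array left out, the count of members called ranged from 0 to 2 for the average of A20 against βgal, from 0 to 2 for the average of resected against unresected livers, and from 0 to 1 in post-A20 against pre-A20, post-βgal against pre-βgal and pre-A20 against pre-βgal livers. It was 2 in pre-A20 against pre-βgal livers with the probe set of largest variance, with the replicate block within transgene, with the 3′ to 5′ ratio as a covariate and with variances moderated over genes only, where Tlr4 joined Lbp, and 0 in a fit of only the 4 arrays compared or without both βgal arrays of replicate number 1. The last setting gave 1 for the average of A20 against βgal. The block within transgene and the covariate each gave 1 in post-βgal against pre-βgal livers (Irak3) and 2 for the average of resected against unresected livers. Whether pools of one replicate number share mice was not tested, and there were 2 per group. The difference of replicate 1 minus 2 had a correlation of 0.68 between post-βgal and pre-βgal livers. Both replicate 1 arrays there had the higher 3′ to 5′ ratios. The correlation was −0.04 between post-A20 and pre-A20 livers and −0.19 to 0.21 between groups of different vectors. The block within transgene called 2094 genes in pre-A20 against pre-βgal livers and 1585 in post-βgal against pre-βgal livers. The main fit called 444 and 400. The plain replicate block changed no call of a member (527 genes called in pre-A20 against pre-βgal livers, against 444 without it). With the pre-A20 numbers crossed, chosen after seeing the data as was the moderation over genes, 2 members and 837 genes were called there.

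The sign of small, uncalled values turned under some settings. For post-A20 against post-βgal livers Irak3 had −0.43 with the probe set of largest variance and −0.080 with the block within transgene, and −0.044 to 0.26 with 1 array left out, Ly96 −0.051 without both βgal arrays of replicate number 1 and −0.051 to 0.26 with 1 array left out, and Tlr2 −1.40 to 0.60. For post-A20 against pre-A20 livers Irak3 had 0.028 with the probe set of largest variance, and Tlr2 −0.061 to 1.48 with 1 array left out. For pre-A20 against pre-βgal livers Irak3 had 0.11 without both βgal arrays of replicate number 1, 0.036 with the covariate and −0.55 to 0.11 with 1 array left out. For post-βgal against pre-βgal livers Myd88 had 0.021 with median centring and 0.059 without both βgal arrays of replicate number 1, and −0.097 to 0.032 with 1 array left out, Tlr2 had 0.28 without both and −1.91 to 0.095, and Tlr4 −0.53 with the probe set of largest variance, −0.0081 with the covariate and −0.093 to 0.10. The Irak3 difference between both resection values was −0.0044 to 0.66 with 1 array left out. Genes called over the alternatives ranged from 6 to 1052 in post-A20 against pre-A20, 8 to 2362 in post-βgal against pre-βgal, 1 to 2094 in pre-A20 against pre-βgal, 0 to 954 in post-A20 against post-βgal livers, 17 to 2707 and 174 to 2257 for both averages and 0 to 125 for the difference between resection values. With 2 arrays in each group the precision is limited, and it was lowest among the 6 genes for Tlr2 (SE 0.66 on the log2 scale).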
